A study of Homo sapiens with 6 samples.

Results

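The 10 genes described here encode nuclear receptors of hepatocytes that respond to bile acids and foreign chemicals, together with their usual partners. They are NR1H4 (FXR), NR0B2 (SHP), NR1I2 (PXR), NR1I3 (CAR), NR5A2 (LRH-1), RXRA, RXRB, NR2F1 (COUP-TFI), NR2F2 (COUP-TFII) and NR2F6 (EAR2). They were chosen by name, and each matched 1 of the 57905 Ensembl gene IDs of the deposited table. RNA was sequenced from 6 libraries of Huh7, a human hepatoma line grown in DMEM with fetal bovine serum. Of these, 3 libraries came from cells transfected with a scrambled siRNA (siControl) and 3 from cells transfected with an siRNA against ASGR1 (siASGR1), all harvested at 72 h. Levels are given in FPKM, fragments per kilobase of exon scaled to the library's depth, as mean ± SD with n = 3 libraries per group. The labels do not say whether libraries of a group came from separate cultures, and the p-values therefore cover variation among these libraries alone, possibly only technical variation.

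Nuclear receptors are transcription factors whose activity is set by small ligands. FXR binds bile acids, pairs with an RXR, and switches on NR0B2 and FGF19. SHP, the product of NR0B2, has no DNA-binding domain and represses genes by binding other receptors, among them LRH-1, which drives bile acid synthesis genes such as CYP7A1. PXR and CAR also pair with RXRs and induce drug-metabolizing enzymes and transporters, and COUP-TFs bind overlapping DNA elements and often act as repressors.

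Depth read from the steps of low FPKM values was 16325000 to 19322000 fragments in siControl and 18472000 to 19246000 in siASGR1. ASGR1, the siRNA target, differed between the deposited sources: in siASGR1 it was 4.71 ± 0.11 in the table of the whole series and 14.8 ± 0.899 in the libraries' own files, against 17.3 ± 0.375 in siControl in both. ASGR1 was the only gene of the table whose values differed between these sources. All 11 hepatocyte markers examined (among them ALB and TTR) reached 1 FPKM in at least 1 library, with summed levels of 4069 to 4187 FPKM in siControl and 8201 to 8391 in siASGR1. The 8 fibroblast markers summed to 10.1 to 11.1 and 11.0 to 12.3, and the 5 leukocyte markers to 1.98 to 3.19 and 1.86 to 2.06. The 5 cholangiocyte markers summed to 44.2 to 45.6 and 41.3 to 42.9. Of these, KRT19, EPCAM and SOX9 reached 1 FPKM in at least 1 library, CFTR stayed under 1 FPKM and KRT7 was at 0 throughout. Of 5 endothelial markers, 4 were found by symbol; they summed to at most 0.21, with KDR and TEK at 0. The part of these marker differences in the receptor results was not tested. In bulk RNA, fewer cells that express a gene and less RNA per cell cannot be told apart.

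Among the receptors, FXR and SHP mRNA rose, RXRB rose by a smaller amount, NR2F1 fell, and NR5A2 fell slightly under the deposited scaling. Of the 9 receptor genes that passed the filter on low values (at least 1 FPKM in at least 3 libraries), 3 were called higher and 2 lower in siASGR1 at an adjusted p under 0.05 (limma, Benjamini-Hochberg over all genes tested). Among all 13568 genes tested, 61.3% were called, 20.9% higher and 40.4% lower, so the receptors' share of calls lay near that of genes at large. Of all genes tested, 67.3% had groups of libraries that did not overlap. This held for 4 of these 9 in the direction of higher values and for 2 in the direction of lower values, against 23.5% and 43.8% of all genes. NR0B2, counted among the 3 called higher and these 4, passed the filter only through the siASGR1 libraries, so it is no independent support. Log2 fold changes were fitted to log2(FPKM + 1), so those of low genes are understated. On that scale the median of all genes tested was -0.13, and the median of the 9 receptors was 0.14. Median-of-ratios scaling moved the median of all genes by 0.13, to -0.01, and then 5 receptors were called higher and 1 lower, while all genes went from 2839 higher and 5480 lower to 4056 and 3921.

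**Figure D1:**
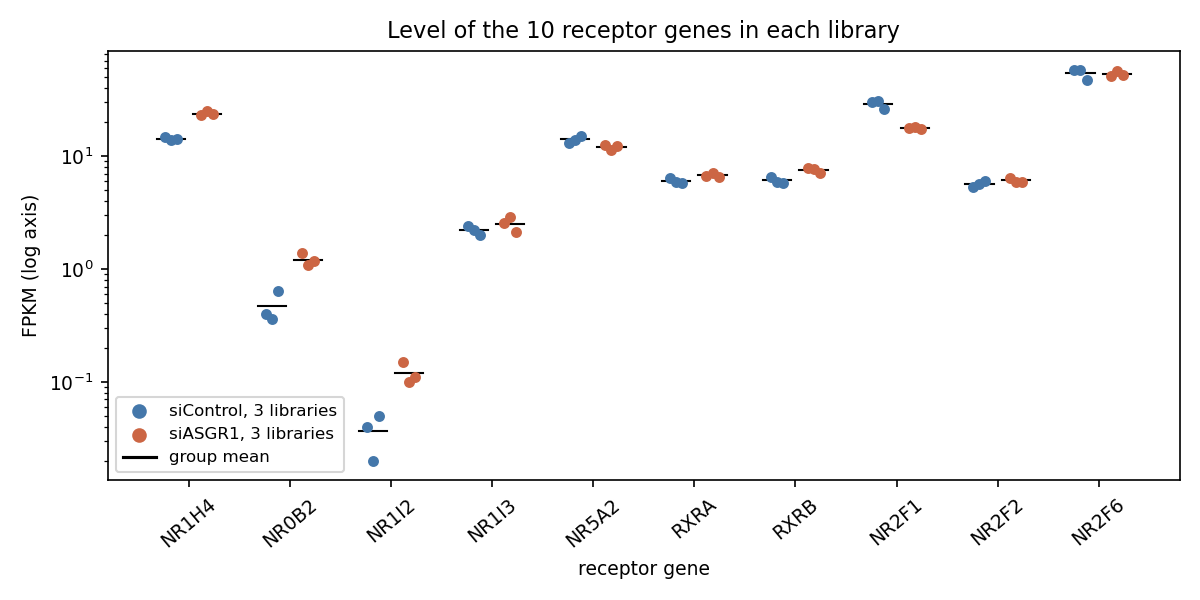
FPKM of the 10 receptor genes on a log axis, with 1 point per library and a line at each group mean. NR2F6 lies highest in siControl at 54.0 and NR1I2 lowest at 0.0367. The points of both groups mix for NR1I3, NR2F2 and NR2F6 and separate for the other receptors, as they do for 67.3% of all genes tested.

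In siControl the order of mean FPKM, which is per length and so can be set between genes, was NR2F6 (54.0), NR2F1 (28.98), NR1H4 (14.16), NR5A2 (14.04), RXRB (6.10), RXRA (6.03), NR2F2 (5.68), NR1I3 (2.20), NR0B2 (0.467) and NR1I2 (0.0367). The ranges of neighbours overlapped for NR1H4 and NR5A2, for RXRB and RXRA, and for RXRA and NR2F2, so these levels do not differ beyond their spread. In siASGR1 no neighbours in the order overlapped, and NR1H4 stood above NR2F1. The values of RXRB and NR1I3 may include fragments of genes that share their exonic bases, described below. Among the 47 nuclear receptor genes of the family that were found by symbol, NR1H4 ranked 7 in siControl and 3 in siASGR1, and NR2F1 ranked 3 and 6. NR2F6 ranked 1 and 2; the gene above it in siASGR1 was HNF4A, a hepatocyte receptor, which rose from 29.9 ± 1.92 to 68.0 ± 0.182.

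NR1H4 (ENSG00000012504) encodes FXR and lies on chromosome 12, 100473708 to 100564413, plus strand (GENCODE v29, GRCh38). Its level was 14.70, 13.76 and 14.02 in the siControl libraries and 23.03, 24.80 and 23.56 in the siASGR1 libraries. Every siASGR1 library was above every siControl library. The mean rose 1.68-fold, from 14.2 ± 0.485 to 23.8 ± 0.908 (0.71 on the log2 scale, SE 0.05, limma adjusted p = 2.33e-05). These values rest on about 830 to 1030 fragments per siControl library and 1562 to 1662 per siASGR1 library.

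Promoter sequence of 3 receptors is shown because their mRNA moved in different ways: NR1H4 rose, RXRA was not called, and NR2F1 fell. Sequences are the 250 bases before the most upstream RefSeq start of each gene (GRCh38.p14), which overlap no exon of GENCODE v29, and 8 of the 10 receptors had an entry. Capitals mark matches, on either strand, to AGGTCA (the core element of nuclear receptors), GGGCGG (the GC box) or CCAAT (the box of that name), and matches of 1 motif may overlap. The NR1H4 and RXRA windows lie within longer gene models of GENCODE. They are at chr12:100503110-100503359, chr9:134326205-134326454 and chr5:93582972-93583221, all on the plus strand.
NR1H4: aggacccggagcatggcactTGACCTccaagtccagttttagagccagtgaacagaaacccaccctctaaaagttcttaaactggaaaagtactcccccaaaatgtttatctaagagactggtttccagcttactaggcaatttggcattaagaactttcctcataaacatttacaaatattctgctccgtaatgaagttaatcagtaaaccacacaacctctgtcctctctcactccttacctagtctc
RXRA: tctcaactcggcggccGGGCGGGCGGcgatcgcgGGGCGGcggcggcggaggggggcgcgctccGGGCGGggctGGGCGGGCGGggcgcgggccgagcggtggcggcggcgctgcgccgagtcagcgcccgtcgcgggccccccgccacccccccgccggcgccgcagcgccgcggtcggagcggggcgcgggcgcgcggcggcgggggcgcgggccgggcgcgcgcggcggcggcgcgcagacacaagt
NR2F1: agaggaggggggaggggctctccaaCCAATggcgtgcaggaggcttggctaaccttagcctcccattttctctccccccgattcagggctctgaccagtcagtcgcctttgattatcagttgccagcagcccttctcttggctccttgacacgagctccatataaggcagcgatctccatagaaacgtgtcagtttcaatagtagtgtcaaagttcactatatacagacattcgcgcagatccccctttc
The NR1H4 window held 1 AGGTCA on the minus strand, starting 230 bases before the start. Of 35116 windows of this length, 12.1% held AGGTCA on either strand. The RXRA window was 89.2% G or C, against a median of 58.0% over all windows, and held 6 overlapping or separate GGGCGG matches, a motif found in 42.6% of windows. The NR2F1 window held 1 CCAAT, found in 32.0% of windows, and was 52.4% G or C; the NR1H4 window was 42.0%. A match describes letters only and no binding was measured here.

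NR0B2 (ENSG00000131910; chromosome 1, 26911489 to 26913966, minus strand), which encodes SHP, was low in all libraries. Its FPKM was 0.40, 0.36 and 0.64 in siControl and 1.39, 1.08 and 1.17 in siASGR1. The groups did not overlap, and the mean rose 2.60-fold, from 0.467 ± 0.151 to 1.21 ± 0.16. The log2 fold change was 0.60 (SE 0.12, adjusted p = 0.0044, limma). NR0B2 passed the filter only through the siASGR1 libraries, so its call among the tested genes is no independent support. The values rest on about 28 fragments over the siControl libraries and 79 over the siASGR1 libraries, and the depth-scaled ratio was 2.62 with a 95% exact interval of 1.69 to 4.19 that covers counting error only. With limma-voom on rebuilt fragments, which adds no FPKM of 1, the log2 fold change was 1.37 (adjusted p = 0.00374). That fit used the same filter, so its call is no independent support either.

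NR5A2 (ENSG00000116833; chromosome 1, 200027602 to 200177424), which encodes LRH-1, was 13.15, 13.88 and 15.09 in siControl and 12.61, 11.41 and 12.22 in siASGR1. The groups did not overlap, but the gap between the nearest libraries was smaller than the spread within siControl. The mean fell 1.16-fold, from 14.04 ± 0.98 to 12.1 ± 0.612 (-0.20 on the log2 scale, SE 0.06, limma adjusted p = 0.026). Its difference was close to the median of all genes, and the call was lost with median-of-ratios scaling (-0.06, adjusted p = 0.417), with quantile normalization (-0.13, adjusted p = 0.12) and when low genes were kept in the fit (adjusted p = 0.0606). It was also lost without siASGR1 replicate 2 (adjusted p = 0.0751), siASGR1 replicate 3 (0.0583), siControl replicate 2 (0.0566) or siControl replicate 3 (0.0645).

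Of the xenobiotic receptors, NR1I2 (ENSG00000144852; chromosome 3, 119780484 to 119818485), which encodes PXR, was near the limit of detection. It was 0.04, 0.02 and 0.05 FPKM in siControl and 0.15, 0.10 and 0.11 in siASGR1, while 3 fragments in a library correspond to 0.0289 to 0.0342 FPKM. It was too low for the fit. Over each group there were about 10 and 36 fragments, a depth-scaled ratio of 3.35 with a 95% exact interval of 1.63 to 7.56 for counting error only. With no filter on low values the log2 fold change was 0.11 (SE 0.03, adjusted p = 0.0593, limma), which did not pass.

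NR1I3 (ENSG00000143257; chromosome 1, 161229666 to 161238302, minus strand), which encodes CAR, was 2.38, 2.21 and 2.00 in siControl and 2.57, 2.88 and 2.12 in siASGR1. The groups overlapped, and the difference did not pass (log2 fold change 0.14, 95% interval -0.10 to 0.37, adjusted p = 0.27, limma), although it did with quantile normalization (0.34, adjusted p = 0.0277). NR1I3 shares 661 exonic bases with TOMM40L on the opposite strand, and the strand setting of the counting is not given in the sources used here. TOMM40L, which encodes a mitochondrial outer membrane protein, was 8.18 ± 0.185 in siControl and 14.8 ± 0.481 in siASGR1. Its fragments over the shared bases would amount to 1.61 to 1.68 FPKM of NR1I3 in siControl and 2.87 to 3.06 in siASGR1 if all were counted there and spread evenly. The part of TOMM40L in the level of NR1I3 was not tested.

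RXRs are the common partners of FXR, PXR and CAR. RXRB (ENSG00000204231; chromosome 6, 33193588 to 33200688, minus strand) was 6.54, 5.94 and 5.81 in siControl and 7.88, 7.71 and 7.13 in siASGR1. The groups did not overlap, and the mean rose 1.24-fold, from 6.10 ± 0.389 to 7.57 ± 0.393 (0.27 on the log2 scale, SE 0.06, limma adjusted p = 0.00681). RXRB shares 244 exonic bases, 6.2% of its exon length, with SLC39A7 on the opposite strand, a zinc transporter gene at 131.0 ± 6.42 and 145.1 ± 3.48 FPKM. Evenly spread fragments of SLC39A7 over the shared bases would come to 7.84 to 8.61 FPKM of RXRB in siControl and 8.78 to 9.16 in siASGR1, more than RXRB itself, so at most some of them can have been counted for RXRB. How many were was not tested.

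RXRA (ENSG00000186350; chromosome 9, 134317098 to 134440585) was 6.37, 5.91 and 5.81 in siControl and 6.64, 7.05 and 6.56 in siASGR1. No siASGR1 library was below a siControl library, yet the difference missed the threshold (6.03 ± 0.299 and 6.75 ± 0.263; log2 fold change 0.14, 95% interval 0.01 to 0.27 before adjustment, adjusted p = 0.059, limma). It passed with median-of-ratios scaling (0.27, adjusted p = 0.00524), quantile normalization (0.28, adjusted p = 0.00539), limma-voom (0.16, adjusted p = 0.0303) and without siControl replicate 1 (0.18, adjusted p = 0.048). RXRG, the remaining family member, was listed at 0 in all 6 libraries.

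Of the COUP-TF genes, NR2F1 was called and NR2F2 and NR2F6 were not. NR2F1 (ENSG00000175745; chromosome 5, 93583224 to 93594615) was 30.14, 30.44 and 26.35 in siControl and 17.61, 18.03 and 17.53 in siASGR1. All siASGR1 libraries were below all siControl libraries, and the mean fell 1.64-fold, from 28.98 ± 2.28 to 17.7 ± 0.269 (-0.68 on the log2 scale, SE 0.06, limma adjusted p = 8.15e-05). Its overlap of 158 bases with the antisense gene NR2F1-AS1 would add at most 0.0473 FPKM.

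NR2F2 (ENSG00000185551; chromosome 15, 96325938 to 96340263) was 5.34, 5.66 and 6.05 in siControl and 6.43, 5.90 and 5.95 in siASGR1. The groups overlapped and the difference did not pass (log2 fold change 0.09, 95% interval -0.06 to 0.23, adjusted p = 0.255, limma), although it did with median-of-ratios scaling (0.22, adjusted p = 0.0154) and quantile normalization (0.23, adjusted p = 0.0103). NR2F6 (ENSG00000160113; chromosome 19, 17231883 to 17245940, minus strand) was 57.33, 57.44 and 47.08 in siControl and 51.18, 56.74 and 52.65 in siASGR1. The siControl libraries alone spanned all siASGR1 values, and the log2 fold change of -0.01 (95% interval -0.20 to 0.19, adjusted p = 0.949, limma) turned to 0.14 with median-of-ratios scaling (adjusted p = 0.204). Of the summed FPKM of these 3 genes, NR2F1 made up 32.5%, 32.5% and 33.2% in siControl and 23.4%, 22.4% and 23.0% in siASGR1. The share of NR2F6 was 59.2% to 61.8% and 68.0% to 70.3%. These shares do not depend on the scaling of a library.

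**Figure D2:**
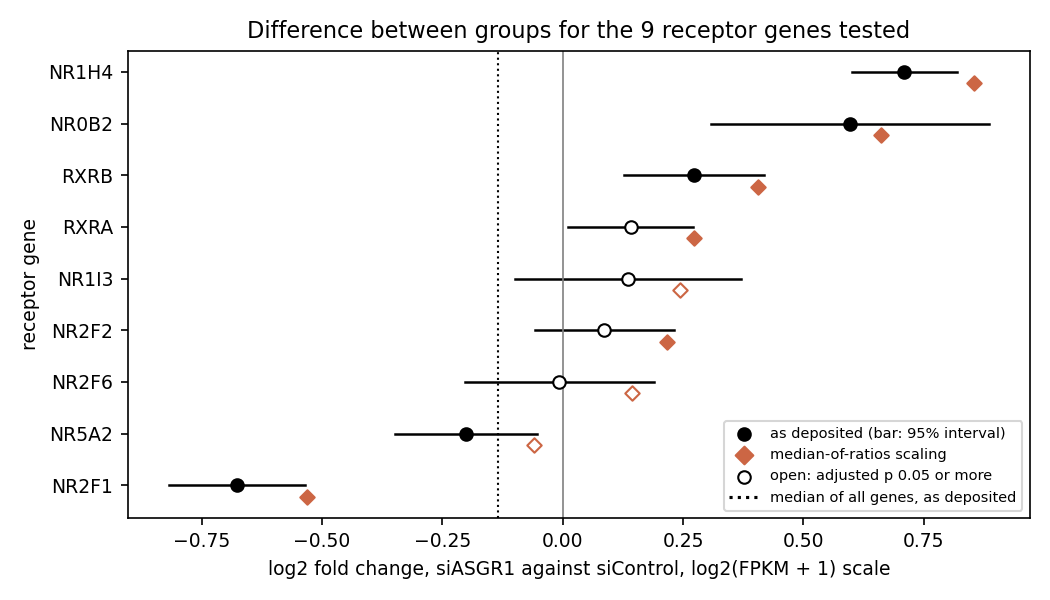
Log2 fold change of siASGR1 against siControl for the 9 receptor genes tested, on the log2(FPKM + 1) scale. Circles with 95% intervals are values as deposited and diamonds those with median-of-ratios scaling, filled where the adjusted p was under 0.05; NR1H4 (0.71), NR0B2 (0.60), RXRB (0.27) and NR2F1 (-0.68) are filled under both, and NR5A2 only as deposited.

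Ratios between receptor genes within a library are free of library scaling. The number computed was 5, and with 3 libraries against 3 the smallest p an exact two-sided permutation test can give is 0.10. NR0B2 over NR5A2, the repressor over one of its partners, was 0.0304, 0.0259 and 0.0424 in siControl and 0.110, 0.0947 and 0.0957 in siASGR1. This is a difference of 1.63 on the log2 scale without overlap (exact permutation p = 0.10, adjusted over 5 ratios 0.125). It rests on few fragments of NR0B2, 7 to 12 per siControl library, and was smaller when 1 was added to each FPKM. NR2F1 over NR2F2 was 5.64, 5.38 and 4.36 in siControl and 2.74, 3.06 and 2.95 in siASGR1, a difference of -0.81 (exact permutation p = 0.10, adjusted 0.125). RXRA and RXRB were about equal in siControl, with ratios of 0.974, 0.995 and 1.00, and 0.843, 0.914 and 0.920 in siASGR1, a difference of -0.15 (exact permutation p = 0.10, adjusted 0.125). The RXRB values may include fragments of SLC39A7, as given above, and their part in this ratio was not tested. NR1H4 over NR0B2 was 36.8, 38.2 and 21.9 in siControl and 16.6, 23.0 and 20.1 in siASGR1. Here the groups overlapped, since siControl replicate 3 lay among the siASGR1 values (difference -0.67, exact permutation p = 0.20, adjusted 0.20), and the difference turned to 0.11 when 1 was added to each FPKM. NR1I2 over NR1H4 rested on the few fragments of NR1I2 and differed by 1.04 (exact permutation p = 0.10, adjusted 0.125), which turned to -0.60 when 1 was added to each FPKM. None of the 5 passed a threshold of 0.05, which this design cannot reach.

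**Figure D3:**
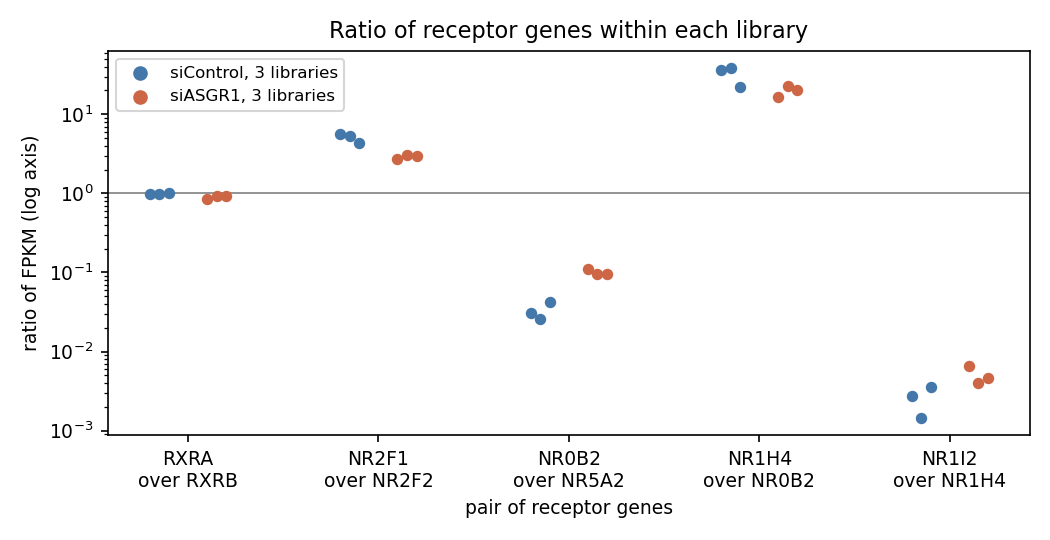
Ratio of the FPKM of 2 receptor genes within each library, on a log axis, with 1 point per library; the grey line marks equal levels. The siASGR1 points lie above siControl for NR0B2 over NR5A2 (0.0947 to 0.110 against 0.0259 to 0.0424) and below for NR2F1 over NR2F2, and they overlap for NR1H4 over NR0B2.

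The genes whose log2 values over the 6 libraries were most like those of NR1H4 were KRT23, a keratin (Pearson r 0.9997), ACAA1, a peroxisomal thiolase (0.9996), and PCK2, the mitochondrial PEPCK (0.9995). For NR0B2 they were YTHDC2, an RNA helicase (0.9985), GSTA4, a glutathione transferase (0.9984), and CYRIA (0.9973). All 6 points come from 2 groups, so r mostly reflects the difference between groups: 1500 tested genes had r above 0.95 with NR1H4 and 612 with NR0B2.

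Genes known as FXR targets went both ways. Of 20 listed, 16 were tested; 11 were higher and 5 lower, beside 20.9% higher and 40.4% lower among all genes tested. The median log2 fold change was 0.51, against -0.13 over all genes tested. SLC51B, which encodes the beta subunit of the bile acid exporter OST, rose from 8.43 ± 0.79 to 17.2 ± 0.905. Its partner SLC51A was 2.05, 2.00 and 1.89 in siControl and 1.42, 1.5 and 1.41 in siASGR1 and fell 1.37-fold (adjusted p = 0.0125, limma). That call was lost with median-of-ratios scaling (adjusted p = 0.0618) and quantile normalization (adjusted p = 0.39). FGF19, the hormone that FXR induces in the gut, fell 2.97-fold, from 17.9 ± 0.61 to 6.04 ± 0.475. The fibrinogen chain genes FGB and FGA rose 5.32-fold and 2.92-fold and PLTP, a phospholipid transfer protein gene, 2.12-fold. The remaining 3 that fell, named after their values were seen, were UGT2B4 (1.32 ± 0.179 to 0.54 ± 0.0624), VLDLR (3.23 ± 0.0451 to 1.80 ± 0.266) and PPARA (14.8 ± 0.223 to 9.76 ± 0.3). UGT2B4 passed the filter only through the siControl libraries, so its call is no support, and it has near-identical copies, so its value is uncertain. ABCB11, the bile salt export pump, was listed at 0.02 FPKM or less in every library, no more than the 0.0201 to 0.0238 that 3 fragments give.

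Of 15 genes driven by LRH-1 or repressed through SHP, 9 were tested; 7 were higher and 1, the kinase gene PLK3 (named after its values were seen), lower, beside the same 20.9% and 40.4% of all genes. The median log2 fold change was 0.73. Of the 7, ABCG8, a sterol transporter gene, passed the filter only through the siASGR1 libraries, so its call is no support. SREBF1, a regulator of lipid synthesis that is also an LXR target, rose 4.75-fold, APOM 2.67-fold, APOA1 2.11-fold and AFP 1.63-fold. CYP7A1, the rate-limiting enzyme of bile acid synthesis, had an FPKM of 0 in all 6 libraries; 3 fragments would be 0.0526 to 0.0623 FPKM. CYP8B1, the sterol 12-alpha-hydroxylase, was 0.11, 0.13 and 0.15 in siControl and 0.07 in each siASGR1 library, too low for the fit. These genes answer to several other receptors. APOA1 and AFP here, and FGB among the FXR targets, are also among the hepatocyte markers, whose summed level was higher in siASGR1; the part of that in these counts was not tested.

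Of 23 PXR and CAR target genes listed, 14 were tested; 4 were higher and 5 lower, near the 20.9% and 40.4% of all genes (8 and 4 with median-of-ratios scaling). Their median log2 fold change was 0.003. ABCC2 and SULT2A1 (the latter named after its values were seen), both called higher, are also in the list of FXR targets. The counts of these lists are therefore not separate. CYP2B6, the classical CAR target, fell 1.64-fold, from 20.3 ± 0.581 to 12.3 ± 1.05 (adjusted p = 0.000109, limma). ALAS1, the first enzyme of heme synthesis, fell 1.25-fold. CYP3A5, one of the 5 called lower, was 1.80 ± 0.291 in siControl and 0.617 ± 0.116 in siASGR1; it passed the filter only through the siControl libraries, so its call is no support. CYP3A4, the main PXR target in liver, was 0.17, 0.11 and 0.12 in siControl and 0.12, 0.12 and 0.15 in siASGR1, too low for the fit. Cytochrome P450 genes of 1 subfamily are near-identical, so reads may be split among copies and their values are uncertain. ALDH1A1, a retinal dehydrogenase, rose 1.59-fold and ABCC2, a conjugate exporter, 1.63-fold. ABCB1, the efflux pump P-glycoprotein, was 23.8 ± 0.503 and 23.3 ± 1.01 (log2 fold change -0.03, adjusted p = 0.557, limma; 0.11 and 0.0497 with median-of-ratios scaling).

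Among the 38 other nuclear receptors, 37 had a row and 23 were tested; 5 were higher and 11 lower (8 and 8 with median-of-ratios scaling; 3 and 10 without siControl replicate 3), near the 20.9% and 40.4% of all genes, with a median log2 fold change of -0.17. Of those called, ESRRB (higher) passed the filter only through the siASGR1 libraries and RARG (lower) only through the siControl libraries, so these calls are no support; both are named after their values were seen. PPARA is in both this list and that of FXR targets. NR1H3, which encodes LXRα, rose 2.31-fold. NR2C2 (TR4), an orphan receptor, fell 1.80-fold and NR4A1, an immediate early receptor gene, 2.28-fold. Of 22 coregulators 21 were tested; 5 were higher and 9 lower (7 and 5 with median-of-ratios scaling), also near those shares, with a median of -0.11. The coactivator gene NCOA2 rose from 6.31 ± 0.132 to 12.2 ± 1.30, the arginine methyltransferase gene PRMT1 1.56-fold and the lysine demethylase gene KDM1A 1.34-fold. PPARGC1A, a coactivator of FXR and other receptors, was listed at 0 in all libraries.

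**Figure D4:**
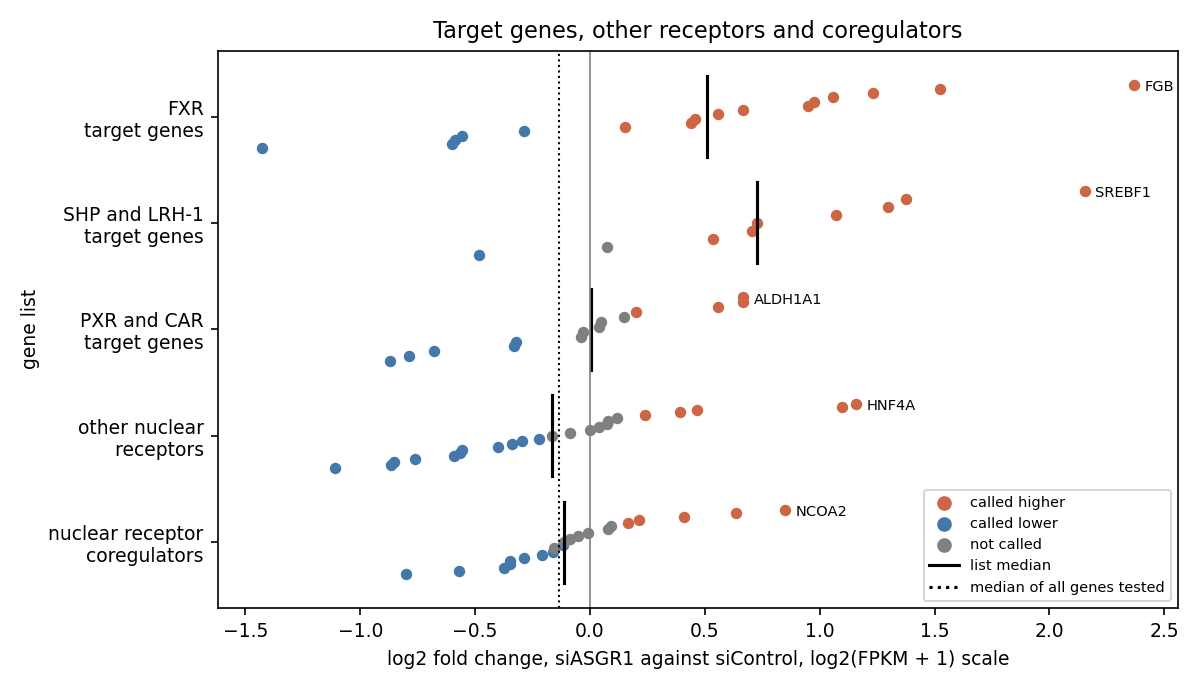
Log2 fold change, on the log2(FPKM + 1) scale, of each tested gene in 5 lists, with 1 point per gene, black lines at the list medians and a dotted line at the median of all genes tested (-0.13). Medians lie at 0.51 for FXR targets and 0.73 for SHP and LRH-1 targets, and between -0.17 and 0.003 for the other lists; the gene with the highest value in each list is named.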

How the data were processed

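FPKM values were deposited by the authors, rounded to 2 decimals, in 1 table of the whole series and 1 file per library. Per the submitters' processing notes, reads were processed with HISAT2 2.0.1, cutadapt 1.9.1 and bcl2fastq 2.17.1.14, and the build named is hg19; for the counter, its strand setting and its gene models the sources used here give nothing. Symbols came from a table of gene IDs (51996 IDs, 89.8%), and exon lengths and positions from GENCODE v29 on GRCh38.

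Genes that reached 1 FPKM in 3 or more libraries were fitted with limma 3.58.1 (R 4.3.3) on log2(FPKM + 1), with the group as the only term, a variance prior that follows the level, two-sided tests and Benjamini-Hochberg adjustment; calls are at an adjusted p under 0.05. The fit was also run on simulated data in which few genes changed, unlike here, so that run does not test the scaling. Depth was found as the value that made low FPKM whole fragments (95.1% to 95.7% within rounding, 11.3% to 13.0% by chance). Fragments rebuilt from it use GENCODE lengths, so they are approximate, and were used for alternatives, limits of 3 fragments, intervals at 95% and a check for duplicate libraries (chi-square over degrees of freedom 2.57 to 5.64 within groups, so none agreed within sampling noise).

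The members and lists were chosen with earlier results of these data known. Named genes are the 10 receptors, ASGR1, 12 further genes set by name, up to 4 called genes of each list with the smallest p, and the 3 genes most like NR1H4 and NR0B2; others are marked as named after their values were seen. Some results for single genes are not reported here. No list was given a set test. Alternatives covered scaling, pseudocount, filters, the prior, rebuilt reads, the other files, a replicate block and leaving out each library. Plots used Python 3.11.15 and matplotlib 3.10.9, with pandas 2.3.3, numpy 2.4.6 and scipy 1.17.1.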

Additional observations from a re-analysis of the deposited data

How the results depend on the processing

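NR1H4, NR0B2, RXRB and NR2F1 kept their direction and their call under all 15 alternatives. Their log2 fold changes ranged from 0.68 to 0.85, 0.54 to 1.37, 0.24 to 0.41 and -0.74 to -0.53, with adjusted p (limma) of at most 0.000463, 0.0205, 0.0273 and 0.000687. The other files differ only for ASGR1, so that alternative repeats the values of every other gene. Changes of the filters, the prior or the block left log2 fold changes as they were, so only the call could differ there. In the main fit NR0B2 passed the filter only through the siASGR1 libraries, so its call is no independent support. All alternatives but that with no filter on low values used a filter that NR0B2 passed only with the siASGR1 libraries. Its calls under them are no independent support either. Over 600 recomputed values of the 40 tested genes named by the rule, 578 kept both direction and side of the threshold, 9 lost and 7 gained a call, and 6 changed sign. The sign changes were NR2F6 (0.14 with median-of-ratios scaling, 0.024 without siASGR1 replicate 1, 0.0043 without siASGR1 replicate 3, 0.039 without siControl replicate 1 0.041 without siControl replicate 2; -0.10 without siControl replicate 3, which is no change of sign) and ABCB1 (0.11 with median-of-ratios scaling).

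With median-of-ratios scaling, receptors called higher went from 3 to 5 and lower from 2 to 1, PXR and CAR targets called higher from 4 to 8, other nuclear receptors higher from 5 to 8, and coregulators lower from 9 to 5. With quantile normalization 6 receptors were higher and 1 lower, 8 other nuclear receptors were higher and 4 coregulators lower. With no filter on low values 1 receptor was lower and 3 other nuclear receptors were higher. The 2 scalings centre the median gene, which lay at -0.13 as deposited; the cause of the difference in scale was not tested.

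Leaving out each library in turn gave 3 to 4 receptors higher and 1 to 2 lower, 3 to 6 other nuclear receptors higher and 8 to 11 lower, 4 to 5 coregulators higher and 7 to 8 lower, and 2495 to 2757 genes higher and 4950 to 5151 lower. FXR targets stayed at 10 to 11 higher and 5 lower. The ratio of NR1H4 over NR0B2 turned from -0.67 to 0.11 and that of NR1I2 over NR1H4 from 1.04 to -0.60 when 1 was added to each FPKM, since that addition outweighs levels under 1.

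Replicate numbers did not pair the libraries: the correlation of same-numbered deviations was -0.0189 to 0.0125 and 0 of 6 libraries correlated best with their own number. With a replicate block 3 receptors were higher and 2 lower, as without it, and 2761 genes higher and 5303 lower. Depth limits NR0B2 and NR1I2, which rest on 28 and 10 fragments over the siControl libraries.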

Other observations

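Receptors of other ligand classes also differed, and the genes named here were chosen after their values were seen. Among retinoic acid receptors, RARG, which passed the filter only through the siControl libraries, fell from 1.53 ± 0.197 to 0.173 ± 0.11 FPKM and RARB from 4.01 ± 0.371 to 2.32 ± 0.188 (n = 3 libraries per group), with limma adjusted p of 0.00025 and 0.000618. RARA was 5.28 ± 0.697 and 5.26 ± 0.197 (adjusted p = 0.999). The circadian repressor genes NR1D1 and NR1D2 both fell, from 8.58 ± 0.423 to 4.27 ± 0.548 and from 13.0 ± 0.373 to 8.47 ± 0.249. HNF4G, a close relative of HNF4A, rose from 3.93 ± 0.271 to 5.81 ± 0.284. Thyroid hormone receptor genes THRA and THRB were 5.60 ± 0.331 and 5.78 ± 0.221, and 8.88 ± 0.102 and 9.44 ± 0.497, without passing the test (adjusted p = 0.591 and 0.219).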
